A study of Xenopus tropicalis with 2 samples.

Results

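Thyroid hormone receptor (TR) ChIP peaks were listed at 18 Mediator subunit genes in the brain of Xenopus tropicalis tadpoles at metamorphic climax. These genes were taken from the deposited peak list by name, as every gene called med followed by a digit, together with cdk8, cdk19 and ccnc. Where the deposited description cited another gene than the deposited name, the description was followed. The 18 genes were among 5285 genes with a peak in all, and they made up 54.5% of the 33 subunit genes named in a RefSeq gene table of assembly UCB_Xtro_10.0, used for names. Of all 15628 named protein-coding genes in that table, 29.8% had a listed peak. Genes with a peak but no usable name, or no match in that table, could not count toward this share. All 18 subunit genes carried a description as a Mediator subunit, and the deposited name matched in 17 of them. The med29 entry was named neurod4 in the file and was placed by its description.

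Chromatin came from the middle part of the brain, with the preoptic area, hypothalamus and thalamus, of wild-type tadpoles reared at 25 °C to Nieuwkoop-Faber (NF) stage 62. There were 2 libraries, 1 precipitated with a polyclonal antiserum to Xenopus TRs and 1 input without antibody, so no test between groups was possible. Both libraries shared genotype, stage and region. The region holds many cell types, and the antiserum was raised to TRs as a group, so a peak gives neither the cell type nor the receptor form.

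Mediator is a large protein complex that passes signals from DNA-bound transcription factors to RNA polymerase II. Its head and middle modules contact the polymerase, and a detachable kinase module controls that contact. Its tail contacts activators. In human cells the complex was purified with hormone-bound TR, and MED1 is the subunit that binds nuclear receptors in the presence of ligand. TRs themselves sit on DNA with or without hormone and recruit coactivators such as Mediator when hormone is present. The data here concern peaks at the genes that encode Mediator and hold no measure of their expression or of the proteins.

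Across the series, the 6302 peaks had a median fold enrichment of 4.06 over background at the summit, as the authors' peak caller gave it. Both the ChIP fragments and the expected background at each summit were solved from the deposited fold and p-value. The median was 24 ChIP fragments over a background of 5.53. Intervals given with each fold are exact 95% Poisson intervals on the ChIP fragments. They cover counting error alone and leave out the error of the background. Nor do they allow for each peak having been listed on the strength of the same ChIP fragments.

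Subunits of every module had a listed peak, in unequal shares. The head had peaks at 2 of 7 genes and the middle at 5 of 9. The scaffold subunit med14 had 1 peak. All 4 subunits at the junction of head and tail, med27, med28, med29 and med30, had a peak, and the tail had peaks at 3 of 5. In the kinase module, med12, med13 and med13l had peaks, and the kinase genes cdk8 and cdk19 and their cyclin gene ccnc had none listed. These counts are small, and no module was tested against another. The junction group was made for this description, with earlier results of these data known. Its med29 peak lay nearer to the start of another gene, as did the med1 peak of the middle and the med20 peak of the head. Of the 5 middle peaks, 2 had their summit within 1 kb of the start of the gene.

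**Figure D1:**
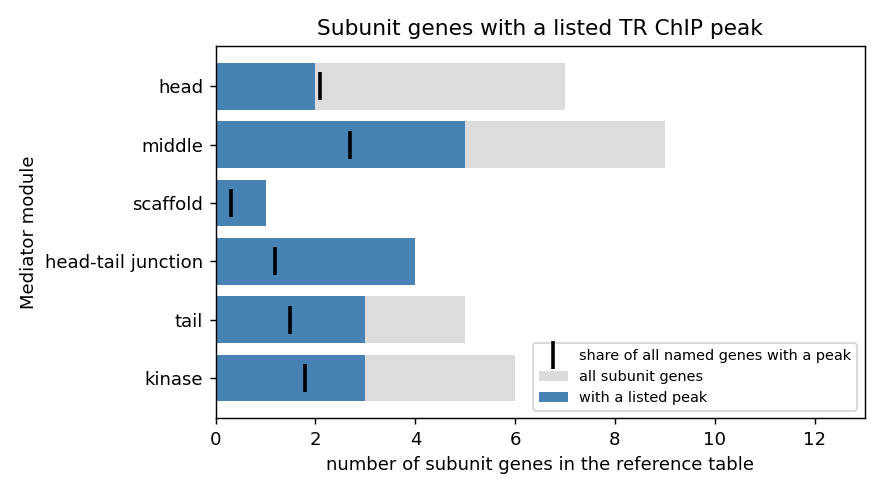
Number of subunit genes in the reference table (grey) and with a listed TR ChIP peak (blue) in each Mediator module, with the number that the 29.8% of all named genes would give marked by a black line. The head lies at the line with 2 of 7 genes. The junction group, made for this description, lies furthest from it with 4 of 4, of which 3 had a peak within 1 kb of the TSS. In the middle, 2 of the 5 peaks lay within that distance.

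No peak was listed for med8, med11, med17, med18 and med22 of the head, for med4, med10, med19 and med31 of the middle, or for med23 and med25 of the tail. The entry med1l, whose name resembles med1, also had none. Together with cdk8, cdk19 and ccnc these make 15 genes without a listed peak. A peak at 1 of the 336 gene entries without a usable name (6.36% of genes with a peak) would be missed here. The name med12l was not matched in the reference table and is not counted.

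The 18 genes held 20 peaks. Of these genes 16 had exactly 1 peak, against 82.1% of all genes with a peak, and med13 and med24 had 2 each. Member peaks lay close to the starts of the genes. Of the 20 peaks, 15 (75%) had their summit within 1 kb of the transcription start site (TSS), taken as the start of the deposited gene model, against 56.7% of all 6760 pairs of a peak and a gene. Within 200 bp there were 11 of 20 peaks (55.0%), against 33.3% of all pairs. The 15 summits were a median of 52 bp from the TSS, with 8 upstream and 7 downstream, and the furthest was at 793 bp. Counted by gene, 14 of 33 subunits had such a peak, against 22.0% of all named genes, and 5 had a peak further away, against 10.9%.

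**Figure D2:**
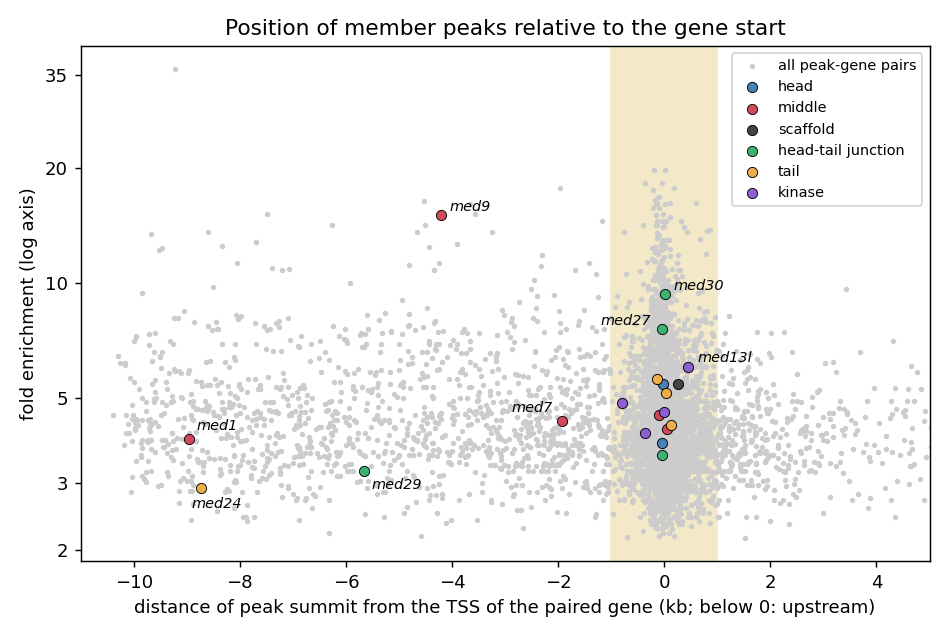
Fold enrichment (log axis) against the distance of the peak summit from the TSS of the paired gene in kb, with upstream below 0, for all pairs of a peak and a gene in the plotted range (grey) and the 20 member peaks (coloured by module). The shaded band is 1 kb to either side of the TSS and holds 15 member peaks, and the other 5 lie upstream, with med9 the highest of all 20.

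Folds at the member peaks ranged from 2.92 to 15.1, with a median of 4.55 and quartiles of 4.02 and 5.50. Over all pairs the median was 4.17 and the quartiles were 3.48 and 5.22, so the middle of the members lay within the range of peaks at large. Fold was above the upper quartile of all peaks (4.94) in 8 of the 20, against 29.2% of all pairs. When peaks were ranked by −log10 adjusted p-value, 13 of 33 subunits had a peak among the upper 3151 of the 6302, against 19.0% of named genes. Among the top 1000 there were 8, against 7.67%, namely med6, med9, med13l, med14, med16, med24, med27 and med30. ChIP fragments at the summit ranged from 11 to 79 with a median of 31, over backgrounds of 2.07 to 9.22. Peak widths ran from 211 to 616 bp with a median of 337 bp.

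**Figure D3:**
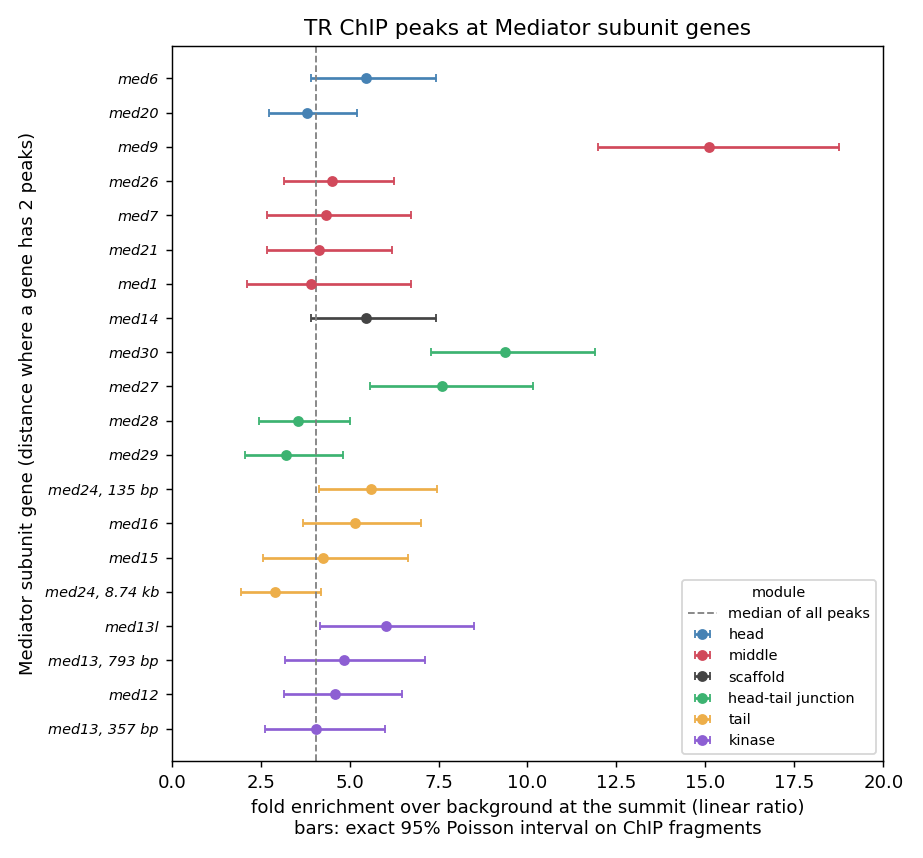
Fold enrichment over background at the summit (linear ratio) for the 20 member peaks, with exact 95% Poisson intervals on the ChIP fragments and the median of all 6302 peaks as a dashed line. The interval of med9 (12.0 to 18.8) starts just above the end of that of med30 (7.28 to 11.9), and both leave out the error of the background. The intervals of most others overlap.

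In the head module, peaks lay at the starts of med6 and med20. The gene med6 encodes a core head subunit. Its peak on chromosome 8 (86831564 to 86831975) had 38 ChIP fragments over a background of 6.14, a fold of 5.46 (3.90 to 7.44), and its summit lay 21 bp upstream of the TSS. The protein of med20 pairs with that of med18 in the yeast head. The med20 peak on chromosome 2 (62392552 to 62392859) also had 38 ChIP fragments, but over the highest background of any member peak, 9.22, which gave a fold of 3.82 (2.73 to 5.20). Its summit lay 40 bp upstream of med20 and 16 bp upstream of bysl, a ribosome biogenesis gene on the other strand, and the starts of these neighbours were 56 bp apart. The med20 peak therefore cannot be assigned to either gene. No peak was listed at med18.

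The middle module held the strongest member peak, at med9, and the weakest by fragment count, at med1. The med9 peak on chromosome 9 (9934375 to 9934875) had 79 ChIP fragments over a background of 4.30, a fold of 15.1 (12.0 to 18.8). It ranked 17th by fold among all 6302 peaks, and its interval does not allow for its having been picked as the highest of 20. Its summit lay 4.22 kb upstream of the deposited gene model, it was paired with no other gene, and the next listed peak was 70.8 kb away. The deposited model of med9 spans 1.16 kb and is the shortest of the 18 member genes. The genes next to med9 in the reference table, rasd1 and nt5m, had no listed peak.

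The gene med7, whose protein forms a hinge with that of med21 in yeast, also had its peak upstream of a short model, with a weaker signal. Its peak on chromosome 3 (6404263 to 6404485) had 18 ChIP fragments over 3.37, a fold of 4.35 (2.67 to 6.74). The summit lay 1.92 kb upstream of a deposited model of 1.37 kb, the second shortest of the members. It also lay 2.62 kb upstream of itk, a T cell kinase gene on the other strand, and the next listed peak was 6.59 kb away. Whether the deposited starts of med7 and med9 are the starts used in this tissue was not tested.

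Peaks at med21 and med26 lay at the starts of their genes. The med21 peak, on an unplaced scaffold (771 to 981), had 22 ChIP fragments over 4.54, a fold of 4.15 (2.67 to 6.20), with its summit 52 bp downstream of the TSS. The med21 model starts at base 805 of that scaffold, so the full 10 kb upstream could not be seen. No other peak was listed on the scaffold. The gene med26 encodes a metazoan subunit that binds elongation factors. On chromosome 1 (100074049 to 100074528) it had 34 ChIP fragments over 6.76, a fold of 4.51 (3.16 to 6.25), with the summit 99 bp upstream. The intervals of med7, med21 and med26 overlapped widely.

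The receptor-binding subunit gene med1 had no peak at its own start. Its listed peak on chromosome 10 (3254208 to 3254493) lay 8.96 kb upstream of the med1 TSS. The summit was 306 bp upstream of cdk12, a neighbouring gene on the other strand that encodes a kinase of the polymerase tail. Only 11 ChIP fragments over a background of 2.07 supported it, with a fold of 3.90 (2.11 to 6.73), the fewest fragments of the 20 peaks. Under a rule that assigned a peak only to its closest TSS, med1 had none.

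The scaffold subunit gene med14 encodes the backbone that joins head, middle and tail. Its peak on chromosome 2 (70145317 to 70145625) lay inside the gene with the summit 252 bp downstream of the TSS. The same values as at med6 were found, 38 ChIP fragments over 6.14 and a fold of 5.46 (3.90 to 7.44).

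Subunits at the junction of head and tail spanned a wide range of folds. These subunits, named as a group for this description, are placed with the head or with the tail by different authors. The peak at med30 on chromosome 6 (121777963 to 121778578) had 66 ChIP fragments over 6.14, a fold of 9.38 (7.28 to 11.9), with the summit 12 bp downstream of the TSS. It was the widest member peak and ranked 145th by fold of all 6302. The gene med27 on chromosome 8 (6613045 to 6613490) had 44 ChIP fragments over 4.92, a fold of 7.61 (5.57 to 10.2), with the summit 42 bp upstream. Intervals of med27 and med30 overlapped, so their order is not settled, and neither peak was paired with another gene.

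The other junction subunits had weaker peaks. At med28 on chromosome 1 (16442016 to 16442380) 31 ChIP fragments over 7.99 gave a fold of 3.56 (2.45 to 5.01), with the summit 45 bp upstream of the TSS. The interval of med28 lay below those of med27 and med30, with the error of the background left out of each. The vertebrate counterpart of the fly gene intersex, med29, had a peak on chromosome 8 (60285067 to 60285307) with 22 ChIP fragments over 6.14 and a fold of 3.22 (2.07 to 4.80). That summit lay 5.66 kb upstream of med29 but 151 bp upstream of its neighbour paf1, on the other strand, which encodes a subunit of the PAF1 elongation complex. As at med1, the peak paired with med29 was nearer to the start of another gene.

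In the tail, peaks lay at the starts of med15, med16 and med24. Tail subunits are contacted by activators, and the med24 protein is known in human cells as a TR-associated protein. The first med24 peak on chromosome 2 (109007742 to 109008164) had 46 ChIP fragments over 7.37, a fold of 5.61 (4.14 to 7.45), with the summit 135 bp upstream of the TSS. A second peak (109016358 to 109016637) lay 8.74 kb upstream of med24 and 129 bp inside rev1, a DNA polymerase gene on the other strand. It had 27 ChIP fragments over 8.60 and the lowest member fold, 2.92 (1.96 to 4.20), whose interval met that of the first peak only at its edge.

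By fold, the peaks of med16 and med15 ranked 1392nd and 2786th of all 6302. The med16 peak on chromosome 1 (81839038 to 81839524) had 39 ChIP fragments over 6.76, a fold of 5.16 (3.70 to 7.00), with the summit 30 bp downstream of the TSS. A gene entry for the spliceosomal U6 RNA began 240 bp away on the other strand. At med15 on chromosome 1 (144261898 to 144262183) 17 ChIP fragments over 3.24 gave a fold of 4.24 (2.57 to 6.65), with the summit 133 bp inside the gene. The intervals of med15, med16 and the first med24 peak overlapped.

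The kinase module had peaks at the genes for its large subunits. MED12 activates the module's kinase, and MED13 and its paralogue MED13L tether the module to the core complex. On chromosome 8 (23200611 to 23200931) med12 had 31 ChIP fragments over 5.96, a fold of 4.60 (3.17 to 6.46), with the summit 3 bp downstream of the TSS, the closest of all member peaks. The gene med13 had neighbouring peaks on chromosome 2, separated by 0.210 kb and both upstream of the gene. The one further away (87602283 to 87602507), 793 bp from the TSS, had 24 ChIP fragments over 4.15, a fold of 4.86 (3.18 to 7.13). The nearer one (87602718 to 87603175), at 357 bp, had 23 over 4.92, a fold of 4.06 (2.63 to 6.00). These intervals overlapped for most of their length.

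The paralogue med13l had its peak on the other side of the start. On chromosome 1 (132891133 to 132891485) 31 ChIP fragments over 4.30 gave a fold of 6.04 (4.16 to 8.49), with the summit 455 bp downstream of the TSS and inside the gene. The intervals of the med13 and med13l peaks overlapped. Exons and introns were not distinguished for any peak, because the deposited annotation gives the start, end and strand of genes alone.

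**Figure D4:**
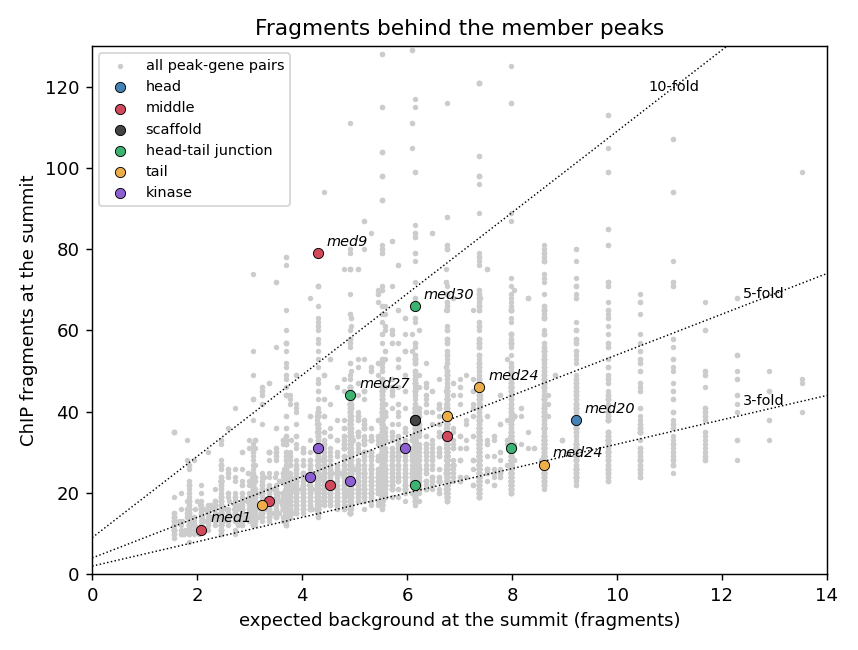
ChIP fragments against the expected background at the summit for all pairs of a peak and a gene in the plotted range (grey) and the member peaks (coloured by module), with dotted lines of equal fold. The points of med6 and med14 coincide at 38 fragments over 6.14, med9 lies above the line of 10-fold enrichment with 79 over 4.30, and med1 lies lowest with 11 over 2.07.

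Sharing of peaks with neighbouring genes lay near the background of all pairs. Of the 20 peaks, 8 were also paired with another gene, against 41.4% of all pairs, and in 4 the other gene had the nearer TSS, against 22.9%. Those 4 were the peaks of med1, med20 and med29 and the upstream peak of med24. When a peak counted only for its closest TSS, 15 of 33 subunits had a peak, against 24.7% of named genes. Another peak lay within 10 kb of 5 of the 20, against 26.6% of all pairs. Member genes had a median deposited length of 15.1 kb, against 19.6 kb over all genes with a peak.

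The 38 partner genes counted here encode TRs, their partner receptors, cohesin and its loader, and factors of the polymerase and its elongation. Peaks were listed at 24 of them (63.2%), against the same 29.8% of named genes, and 18 had a peak within 1 kb of the TSS, against 22.0%. By role, 7 of 7 genes of cohesin and its loader had a peak, 3 of 3 genes that control the elongation kinase P-TEFb, and 6 of 9 genes of kinases and cyclins that act on the polymerase tail. Peaks were also listed at 3 of 5 genes of TRs and their partner receptors, 3 of 8 of the super elongation complex and 2 of 6 of polymerase pausing. In the same order of roles, 5, 3, 5, 2, 2 and 1 genes had a peak within 1 kb of the TSS. The peak of aff4, in the super elongation complex, lay 71.3 kb downstream of its TSS and nearer to the start of uqcrq. Roles were not tested against each other. This list was drawn up with earlier results of these data known.

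The 29 peaks of the partner genes had a median fold of 3.77, against 4.17 over all pairs. Of these peaks, 11 lay below the lower quartile of all peaks (3.45), against 1604 of 6760 pairs. Above the upper quartile (4.94) there were 8, against 1971 pairs. At the genes of cohesin and its loader, the highest fold of each gene ran from 2.36 to 5.28. Among the partner genes the highest folds were at larp7, ccnh, thrb and cdk7. The gene larp7, whose product binds the 7SK RNA that restrains P-TEFb, had 72 ChIP fragments over 3.50, a fold of 16.2 (12.7 to 20.4). Its summit lay 145 bp upstream of larp7 and nearer to the start of a gene entry without a usable name. The cyclin gene ccnh and its kinase gene cdk7, whose products belong to the general factor TFIIH, had folds of 9.28 (7.12 to 11.9) and 8.39 (5.67 to 12.0), with summits 59 bp and 63 bp downstream of their TSSs. No peak was listed at mnat1, which encodes the third subunit of the same kinase, or at the kinase genes cdk9 and cdk13. The receptor gene thrb had 2 peaks, 1 of them within 1 kb of the TSS. The higher had a fold of 9.25 (6.89 to 12.2), with its summit 88 bp downstream of the TSS. No peak was listed at the receptor gene thra. The peak counted for cdk12 in this list is the same peak as that paired with med1.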

How the data were processed

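The analysis used 1 deposited list of TR ChIP peaks, called by the authors for the series as a whole from 1 ChIP library, with 1 input library. The submitters' processing notes name MACS2 2.2.6, BWA 0.7.17, fastp 0.20.1 and other tools without their roles. The build and the peak threshold are not given in the sources used here. Coordinates are as deposited and are not those of UCB_Xtro_10.0, where gene positions differ. Per the file headers, the authors gave each peak a linear fold ratio, a −log10 p-value, its adjusted form and a score. The deposited score equalled 10 times the −log10 adjusted p-value, rounded down, in all 6302 peaks. Peaks had been paired with genes from 10 kb upstream to the gene end.

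Whole numbers of ChIP fragments were sought that gave each deposited fold, with 1 added to fragments and to background, and each p-value as a Poisson tail. They were found for all 6302 peaks within 0.0001 in −log10 p (SciPy 1.17.1). On 6302 simulated peaks the step recovered 100% of fragment counts. Those peaks were made with the same formula, so the recovery covers the solving step and not the formula itself. Their backgrounds stopped short of the highest in the data. Total depth is unknown. Names followed the NCBI gene number in the description where given, otherwise the deposited name where its source was Xenbase, RefSeq mRNA, miRBase, UniProt or RFAM. Of 4949 named genes with a peak, 4797 were matched in the reference table. Members, modules and lists were chosen with earlier results of these data known. Every subunit is named. Of the partner list, the 4 highest folds are named, with thra, cdk12, aff4, mnat1, cdk9 and cdk13. Other partner genes, with or without a peak, are counted and not named. No test was run, and the lists were not matched on gene length. No sequences were used here, so the planned search of promoters for motifs was not run.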

Additional observations from a re-analysis of the deposited data

How the results depend on the processing

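The count of 18 subunits with a peak stayed within 1.5 times under 6 of 8 alternatives (13 to 18). Under those 6 the share of named genes with a peak ran from 19.0% to 29.7%. The count was 18 with the summit inside the gene region (29.7% of named genes) and 17 with deposited names (29.1%). It was 14 with the region cut from 10 kb to 1 kb upstream (26.5%). It fell to 8 with the 1000 strongest peaks (7.67% of named genes) and to 5 with peaks more than 1 kb from the TSS (10.9%), settings that keep fewer peaks. With the 3151 stronger peaks it was 13 (19.0%). Of member peaks, 75% were within 1 kb of the TSS, and 92.9% when those 3151 were used, where the share over all pairs rose as well, from 56.7% to 62.6%. Under the other 4 alternatives the members lay between 70.0% and 87.5% and all pairs between 48.4% and 68.8%. The median fold moved from 4.55 to 5.83 with the 1000 strongest peaks, below the 6.61 of all pairs there. Under the other 3 it was 4.73 to 5.31, against 4.08 to 5.02 for all pairs treated alike. The count of partner genes was 24 of 38 at first, against 29.8% of named genes. It was 15 among those 3151 peaks (19.0% of named genes) and 23 with deposited names (29.1%). No paired analysis was possible because each group had 1 library. With 1 ChIP library, no value has a replicate error.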
